A study of Rattus norvegicus with 6 samples.

Results

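Phosphate is recovered from the glomerular filtrate mainly in the proximal tubule, and 10 genes of that pathway and of its hormonal control were followed here in the rat renal cortex, the outer kidney layer that holds most of the proximal tubules. They were chosen by name and are Slc34a1, Slc34a3, Slc20a1, Slc20a2, Xpr1, Pdzk1, Kl, Fgfr1, Slc17a1 and Slc17a3. They are 10 of the 15284 named genes with a probe on the array, and 19 probes measure them. The 6 male Sprague-Dawley (Crl:CD(SD)) rats were bought at 5 weeks of age. The 3 controls were given corn oil for 4 weeks, and the 3 treated rats were given phenolphthalein, a compound formerly sold as a laxative, at 1000 mg/kg/day over the same time. Total RNA of each rat was labelled with Cy3 and hybridised to its own 1-colour Agilent array. The comparison asks which genes of the renal cortex differ after phenolphthalein.

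The sodium-dependent carriers of the brush border, NaPi-IIa (Slc34a1) and NaPi-IIc (Slc34a3), take phosphate from the tubule lumen into the cell, and scaffold proteins such as PDZK1 hold NaPi-IIa in the membrane. The bone hormone FGF23 acts through a complex of an FGF receptor and alpha-Klotho, the product of Kl, and causes these carriers to be withdrawn, as does parathyroid hormone through Pth1r. PiT-1 and PiT-2 (Slc20a1 and Slc20a2) are sodium-phosphate cotransporters found in most cells, XPR1 exports phosphate from cells, and the products of Slc17a1 and Slc17a3, first described as phosphate carriers, transport urate and other organic anions.

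Before these values were compared, the arrays were examined as a set. Between 64.8% and 72.1% of the 61657 probes besides controls were well above background per array, and 0 spots were saturated. The 6 arrays came from 3 slides: 1 carried every vehicle array, 1 carried only phenolphthalein replicate 1, and 1 carried the remaining treated pair. The vehicle slide and the vehicle group therefore cannot be told apart. Phenolphthalein replicate 1 stood apart from the other arrays. It held the highest or lowest of the 6 values in 47.2% of all tested probes, against 27.5% to 33.9% for each of the other arrays, so most differences that change with it are also given without it, although its animal and its slide cannot be told apart. All 12 proximal tubule markers, among them Lrp2, Slc5a2 and Slc22a6, were well above background on all 6 arrays. Podocyte, thick ascending limb, collecting duct and endothelial markers were also well above background. In bulk tissue, fewer cells of a type and less RNA per cell cannot be told apart.

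None of the 19 probes passed the test for a difference between the groups (limma, adjusted p between 0.559 and 0.974 after Benjamini-Hochberg adjustment over 43473 probes). Over all probes tested, 0 were called higher and 0 lower at an adjusted p under 0.05, which is 0% of the probes in each direction, and the smallest adjusted p was 0.221. The levels below are log2 of the spot intensity relative to the 75th percentile of its array, so a level of 0 is that percentile, and differences are phenolphthalein minus vehicle. The differences of the 19 probes lay between -0.24 and 0.29, with 8 above 0 and 11 below, and their median was -0.04, against -0.01 over all tested probes. An unadjusted p under 0.05 was reached by 1 of the 19 probes (5.26%), which was lower, and by 3836 of all tested probes (8.82%), of which 3.91% were higher and 4.91% lower. The groups did not overlap for 2 of the 19 (10.5%), 1 in each direction, and for 15.6% of all tested probes, 6.63% higher and 8.98% lower. The shares of the 19 rest on 1 and 2 probes, too few to be read as differing from those of all tested probes.

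**Figure D1:**
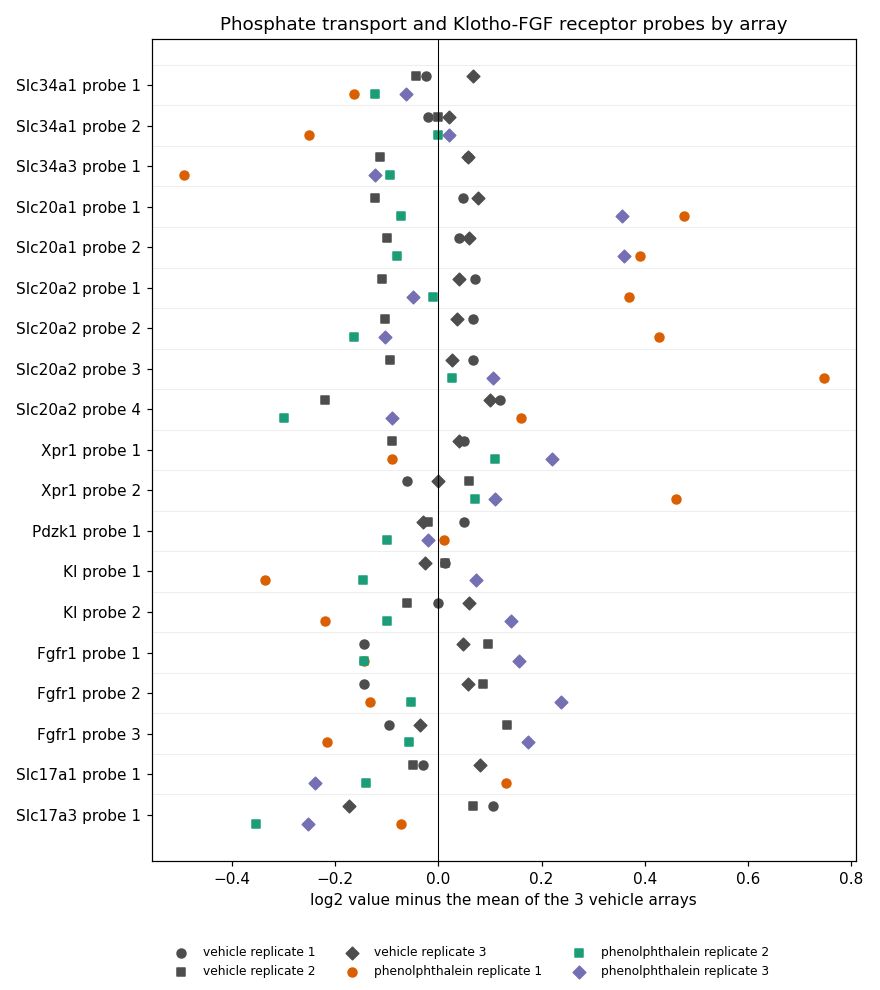
Each row is a probe, numbered within its gene by mean signal, and each point is an array, plotted as its log2 level minus the mean of the 3 vehicle arrays (grey). Phenolphthalein replicate 1 (orange) lies at the right edge for the 4 Slc20a2 probes and at the left edge for Slc34a1, Slc34a3 and Kl.

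Slc34a1, which encodes the carrier responsible for most phosphate reabsorption in the rat kidney, was measured by 2 probes. On the first, the vehicle arrays stood at 7.97, 7.95 and 8.06 and the phenolphthalein arrays at 7.83, 7.87 and 7.93. Every phenolphthalein value was below every vehicle value, and the nearest arrays read 7.93 and 7.95. The difference was -0.12 (SE 0.05, n = 3 each, 95% interval -0.23 to -0.00306, unadjusted p = 0.0455, limma adjusted p = 0.559), a fold of 0.923, and it was -0.09 without phenolphthalein replicate 1. The second probe read 6.95, 6.97 and 6.99 in vehicle and 6.72, 6.97 and 6.99 in phenolphthalein. Here replicates 2 and 3 of the treated group fell inside the vehicle range and replicate 1 alone was low. The difference on that probe was -0.08 (SE 0.08, 95% interval -0.26 to 0.10), and it was 0.01 without phenolphthalein replicate 1. A 2-sided exact permutation test gave p = 0.10 for the first probe, the smallest p that 3 against 3 arrays allow, and 0.60 for the second.

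Slc34a3 encodes the second brush border carrier, whose loss in people leads to phosphate wasting. Its single probe stood at 4.97, 4.80 and 4.97 in vehicle and at 4.42, 4.82 and 4.79 in phenolphthalein. Phenolphthalein replicate 1 was the lowest array, and the other treated arrays lay close to the lowest vehicle array. The difference was -0.24 (SE 0.11, 95% interval -0.51 to 0.03, limma adjusted p = 0.606), equal to a change of -15.3% with an interval of -29.8% to 2.14%. Without phenolphthalein replicate 1 the difference was -0.11.

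Slc34a1 and Slc34a3 read lowest on phenolphthalein replicate 1, as 25.3% of all tested probes did. Both Kl probes, the first Xpr1 probe and the third Fgfr1 probe were also lowest there. A link between sequence and level was not tested. The stretches just upstream of these carrier genes are shown as a description. They are the 250 bases before the annotated start in the RefSeq promoter table of the GRCr8 build, Slc34a1 at chr17:9238984-9239233 and Slc34a3 at chr3:28447998-28448247, both on the minus strand and written 5′ to 3′. Capitals mark GTTAAT (letters of an HNF1 half-site), TATAAA (the core promoter box read by TBP) and AGGTCA (a nuclear receptor half-site), on either strand.
Slc34a1: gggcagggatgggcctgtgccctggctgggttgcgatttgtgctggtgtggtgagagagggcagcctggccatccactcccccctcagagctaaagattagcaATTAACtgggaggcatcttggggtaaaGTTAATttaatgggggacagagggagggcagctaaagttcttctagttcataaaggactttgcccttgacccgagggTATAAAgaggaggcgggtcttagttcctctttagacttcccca
Slc34a3: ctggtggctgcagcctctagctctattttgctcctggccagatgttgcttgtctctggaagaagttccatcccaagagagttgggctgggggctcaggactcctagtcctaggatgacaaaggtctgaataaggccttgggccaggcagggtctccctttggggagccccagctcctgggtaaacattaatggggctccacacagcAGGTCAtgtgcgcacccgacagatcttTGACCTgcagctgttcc

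Of the 10 genes, 7 had such a window (Slc20a1, Slc20a2 and Fgfr1 did not match). GTTAAT occurred only in that of Slc34a1, at 2 places that do not overlap, where 6.45% of the 33469 windows of this length in the table hold it. TATAAA also occurred only upstream of Slc34a1, against 12.9% of all windows. AGGTCA was found upstream of Slc34a3 (2 matches), Xpr1 and Pdzk1, against 14.1% of all windows. The windows of Kl and Xpr1 were rich in CpG, with 27 and 25 CpG pairs, while the other 5 had 2 or 3 and the median window of the table had 5. These motifs were picked with the sequences in view, and a match describes letters, not a bound site.

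Pdzk1 encodes the multi-PDZ scaffold that binds the tail of NaPi-IIa at the brush border. The vehicle rats read 6.32, 6.25 and 6.24 and the treated rats 6.28, 6.17 and 6.25. The groups overlapped and all 6 arrays lay close together. The difference was -0.04 (SE 0.05, limma adjusted p = 0.857), and its 95% interval of -0.15 to 0.08 bounds the change between -10.1% and 5.73%. The other scaffolds of the pathway are described with the wider list below.

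Slc20a1 and Slc20a2, the housekeeping carriers PiT-1 and PiT-2, read higher in phenolphthalein replicate 1 than on any other array, on all 6 of their probes. The first Slc20a1 probe stood at 1.1, 0.93 and 1.13 in vehicle and at 1.53, 0.98 and 1.41 in phenolphthalein. Replicates 1 and 3 of the treated group were above every vehicle array, and replicate 2 was within the vehicle range. The difference was 0.26 (SE 0.15, 95% interval -0.09 to 0.60, limma adjusted p = 0.656), a fold of 1.19. The second Slc20a1 probe showed the same order of arrays within the treated group, with 0.15, 0.01 and 0.17 in vehicle and 0.50, 0.03 and 0.47 in phenolphthalein, and differed by 0.22 (SE 0.13). Without phenolphthalein replicate 2 the differences were 0.42 and 0.37 (limma adjusted p = 0.352 and 0.357), and without phenolphthalein replicate 1 they were both 0.14.

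Slc20a2 had 4 probes, which did not share a direction. The first stood at 3.11, 2.93 and 3.08 in vehicle and at 3.41, 3.03 and 2.99 in phenolphthalein, a difference of 0.11 (SE 0.12, limma adjusted p = 0.822). The third had the widest spread among treated arrays, with -1.70, -1.86 and -1.74 in vehicle and -1.02, -1.74 and -1.66 in phenolphthalein. Its difference was 0.29 (SE 0.19, limma adjusted p = 0.696), and it was 0.06 without phenolphthalein replicate 1. The second and the last probes differed by 0.05 (SE 0.16) and -0.08 (SE 0.16). Without phenolphthalein replicate 1 the 4 probes gave -0.03, -0.13, 0.06 and -0.19 in order, so replicates 2 and 3 of the treated group were on average within 0.19 of the vehicle mean on every Slc20a2 probe.

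Xpr1, the phosphate exporter, was measured by 2 probes that disagreed on phenolphthalein replicate 1. The first read -1.27, -1.41 and -1.28 in vehicle and -1.41, -1.21 and -1.10 in phenolphthalein, so that replicate 1 was lowest, level with vehicle replicate 2 at this rounding, while replicates 2 and 3 lay above the vehicle arrays. The second read -2.82, -2.70 and -2.76 in vehicle and -2.30, -2.69 and -2.65 in phenolphthalein, with replicate 1 highest. On the second probe the groups did not overlap, the nearest arrays reading -2.69 and -2.70, and the difference was 0.22 (SE 0.13, 95% interval -0.09 to 0.52, limma adjusted p = 0.672). The first gave 0.08 (SE 0.10, limma adjusted p = 0.852). Without phenolphthalein replicate 1 the differences were 0.16 and 0.09.

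Kl, whose product alpha-Klotho is made chiefly in the distal convoluted tubule and also in proximal cells, was lower in phenolphthalein replicate 1 on both of its probes. The first stood at 1.77, 1.77 and 1.73 in vehicle and at 1.42, 1.61 and 1.83 in phenolphthalein. The vehicle arrays spanned 0.04 and the treated arrays 0.41, with replicate 3 above all vehicle arrays and the other treated arrays below them. The difference was -0.13 (SE 0.10, 95% interval -0.38 to 0.11, limma adjusted p = 0.738). The second probe gave 1.66, 1.60 and 1.72 in vehicle and 1.44, 1.56 and 1.80 in phenolphthalein, with the treated arrays in the same order and a difference of -0.06 (SE 0.10). Without phenolphthalein replicate 1 the differences were -0.03 and 0.02.

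Fgfr1, one of the receptors that Klotho turns into a receptor for FGF23, had 3 probes with differences of -0.04 (SE 0.11), 0.02 (SE 0.12) and -0.03 (SE 0.12), or 0.01, 0.09 and 0.06 without phenolphthalein replicate 1. On the first, the vehicle arrays stood at 0.38, 0.62 and 0.57 and the phenolphthalein arrays at 0.38, 0.38 and 0.68. Phenolphthalein replicate 3 was highest on all 3 probes, and the groups overlapped on each. The 95% intervals of the 3 probes together ran from -0.31 to 0.30.

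Slc17a1 and Slc17a3, which encode the transporters NPT1 and NPT4, are neighbours on chromosome 17 in the GRCr8 assembly. Slc17a3 stood at 4.41, 4.37 and 4.13 in vehicle and at 4.23, 3.95 and 4.05 in phenolphthalein. Replicate 1 of the treated group lay within the vehicle values and the other treated arrays lay below them. The difference was -0.23 (SE 0.10, 95% interval -0.47 to 0.01, limma adjusted p = 0.588), a change of -14.6%, and it was -0.31 without phenolphthalein replicate 1. Slc17a1 stood at 1.86, 1.84 and 1.97 in vehicle and at 2.02, 1.75 and 1.65 in phenolphthalein, a difference of -0.08 (SE 0.10, limma adjusted p = 0.846). On this probe phenolphthalein replicate 1 was the highest array and the other treated arrays were the lowest, and the difference was -0.19 without it. Without phenolphthalein replicate 3 the Slc17a1 difference was -0.00359, so its size depends on single treated arrays.

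**Figure D2:**
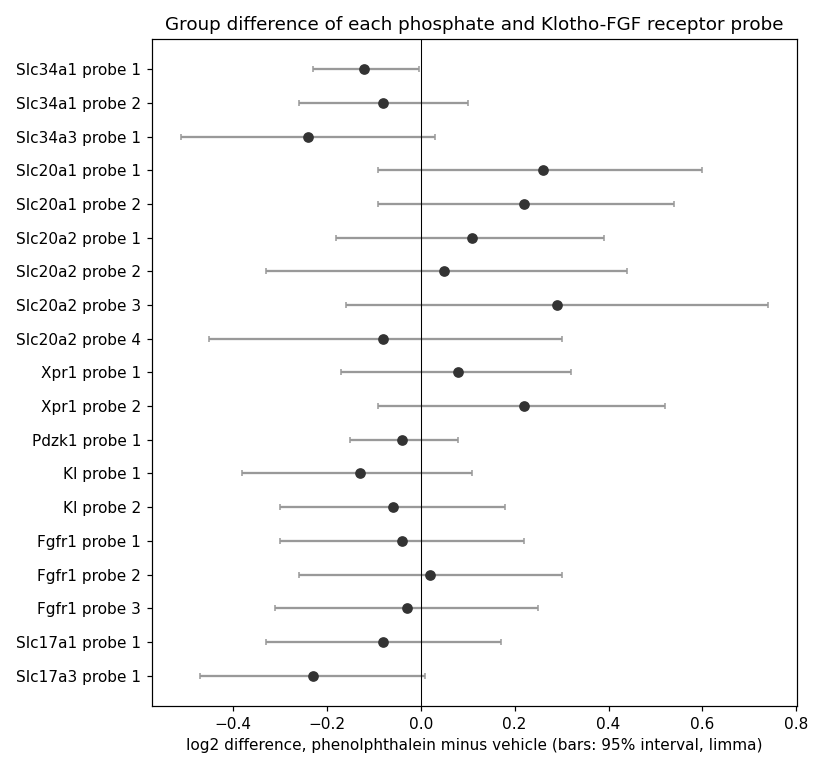
The points are log2 differences between the means of 3 phenolphthalein and 3 vehicle arrays for each probe, and the bars are 95% intervals from limma. The intervals of 18 of the 19 probes include 0, and that of the first Slc34a1 probe ends at -0.00306.

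The treated arrays spread more widely than the vehicle arrays on these probes. The vehicle arrays shared a slide and the treated arrays did not, so animals and slides cannot be told apart in this spread. The range over the 3 phenolphthalein arrays was wider than that over the 3 vehicle arrays for 18 of the 19 probes, the first Slc34a1 probe being the exception, and for 60.7% of all tested probes. Phenolphthalein replicate 1 held the highest or lowest value of the 6 arrays for 15 of the 19 probes, or 78.9%, against 47.2% of all tested probes. It was highest for 8 probes, namely those of Slc20a1 and Slc20a2, the second of Xpr1 and that of Slc17a1. It was lowest for 7, namely those of Slc34a1, Slc34a3 and Kl, the first of Xpr1 and the third of Fgfr1. The median distance between replicate 1 and the mean of the other treated arrays, without sign, was 0.27 over the 19 probes and 0.17 over all tested probes, while replicates 2 and 3 lay a median of 0.09 from the vehicle mean, against 0.11 over all. These counts hold probes that share a gene, so they are a description and were not tested. With normexp background correction the count was 13 of 19, and with quantile normalization or median centring it was 16.

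**Figure D3:**
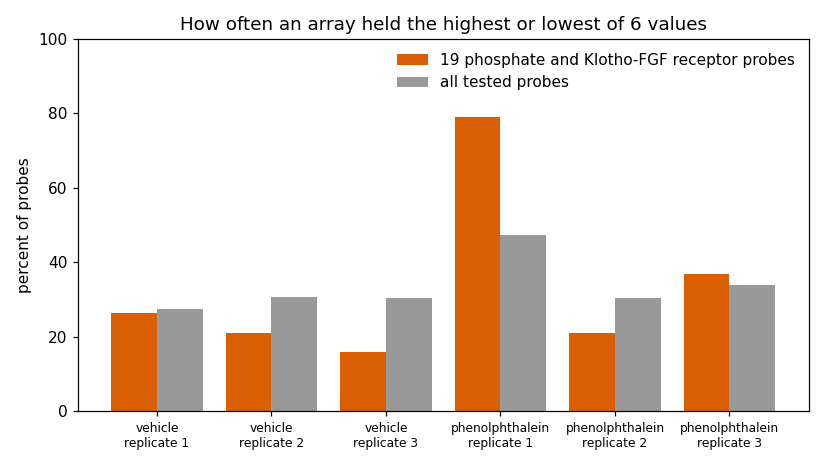
Bars give the percent of probes for which an array held the highest or the lowest of the 6 values, for the 19 probes of the 10 genes (orange) and for all tested probes (grey). Phenolphthalein replicate 1 reaches 78.9% and 47.2%, and each of the other arrays stays at or below 36.8%.

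Cell type markers were read on the same arrays. The 23 proximal tubule probes had a median difference of -0.02, with 11 above 0 and 12 below, and array means relative to vehicle of -0.03 to 0.03 in vehicle and -0.03 to -0.02 in phenolphthalein. Phenolphthalein replicate 1 was lowest on 7 of them and highest on 5, where it was lowest for 25.3% and highest for 21.8% of all tested probes. All 3 probes of the glucose carrier Slc5a2, a proximal gene like Slc34a1 that was singled out after its values were seen, were lowest on that array as well, with differences of -0.15 (SE 0.10), -0.19 (SE 0.11) and -0.22 (SE 0.13), or -0.04, -0.07 and -0.07 without it. Other proximal genes went the other way there: all 3 probes of the transcription factor Hnf4a, that of Ggt1 and the first of Slc5a12 were highest on that array. The groups did not overlap for 17.4% of the proximal tubule probes, 3 higher and 1 lower, against 15.6% of all tested probes. The higher ones were 2 of the 3 probes of the bicarbonate carrier Slc4a4 (0.20, SE 0.07, and 0.17, SE 0.06, limma adjusted p = 0.520 and 0.537) and the third of Hnf4a (0.18, SE 0.09). The lower one was the second Miox probe (-0.23, SE 0.07, limma adjusted p = 0.487), while the first Miox probe was at -0.02 (SE 0.04). Among 11 distal convoluted tubule probes the median was 0.03, and array means ran from -0.06 to 0.11 in vehicle and from -0.05 to 0.19 in phenolphthalein; Pvalb was not well above background on any array. The 3 probes of Slc12a3, the sodium-chloride carrier of that segment, disagreed, at -0.39 (SE 0.05, no overlap, unadjusted p = 0.000151, limma adjusted p = 0.310), 0.02 (SE 0.15) and 0.47 (SE 0.20). No marker probe passed the adjusted threshold. Macrophage markers had a median of -0.39 with 14 of 17 probes below 0, and 10 were lower and 2 (both of Cd14) higher at an unadjusted p under 0.05, where 4.91% of all tested probes were lower and 3.91% higher, while T and NK cell markers had a median of -0.54 with 8 of 8 below 0, where 23269 of the 43473 probes tested were below 0. Among 11 fibroblast and mesangial probes the median was 0.04, but 6 had an unadjusted p under 0.05 (54.5%), in both directions: the 3 probes of the collagen gene Col1a1 were between -0.41 and -0.37 and that of Col3a1 at -0.19, while the proteoglycan genes Dcn and Lum were at 0.84 (SE 0.35) and 1.56 (SE 0.43). The array means of the macrophage and of the T and NK cell markers in phenolphthalein were -0.38 to -0.18 and -0.75 to -0.37, against -0.15 to 0.22 and -0.24 to 0.30 in vehicle. Collecting duct markers had a median of -0.12 with 8 of 11 probes below 0, and 2 were lower at an unadjusted p under 0.05, where 4.91% of all tested probes were lower. These were both Aqp2 probes, at -0.58 (SE 0.20) and -0.49 (SE 0.17), or -0.40 and -0.42 without phenolphthalein replicate 1. The collecting duct markers were lowest in phenolphthalein replicate 1 on 7 of 11 probes, against 25.3% of all tested probes. Their array mean there was -0.38, against -0.12 and 0.06 in the other treated arrays. The liver genes, which range widely between these arrays, peaked in phenolphthalein replicate 2 (array mean 1.79). The part of each of these in the values of the phosphate genes was not tested.

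The wider phosphate pathway was followed through 23 further genes with a probe, of which 21 could be tested on 33 probes. Of these, 0 passed the adjusted threshold in either direction. The median difference was -0.03, and the unadjusted p was under 0.05 for 5 probes, 1 higher and 4 lower, a share of 15.2% against 8.82% of all tested probes. Phex, a bone endopeptidase that restrains FGF23, was not well above background on any array, and Stc2 was so on only 1. Galnt3, whose enzyme adds the sugar that protects FGF23 from cleavage, had the largest difference of the list. Its first probe stood at 2.49, 2.62 and 2.27 in vehicle and at 1.33, 0.95 and 2.05 in phenolphthalein. Every treated value was below every vehicle value, with replicate 3 close to the vehicle arrays. The difference was -1.02 (SE 0.26, 95% interval -1.64 to -0.40, limma adjusted p = 0.441), a fold of 0.494. The second Galnt3 probe stood at -2.80, -2.70 and -3.00 in vehicle and at -4.24, -4.53 and -3.12 in phenolphthalein, again without overlap, with a difference of -1.13 (SE 0.35, limma adjusted p = 0.487; -0.62 with normexp). Leaving out 1 array at a time gave -1.32 to -0.77 for the first probe, with the smallest size without phenolphthalein replicate 2.

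The other genes named by the rule in this list were Nherf2, Slc17a5 and Ankh. Nherf2, a PDZ scaffold related to the NaPi-IIa partner Nherf1, stood at -0.80, -0.98 and -0.86 in vehicle and at -0.62, -0.70 and -0.18 in phenolphthalein, with no overlap and a difference of 0.38 (SE 0.15, limma adjusted p = 0.540), or 0.22 without phenolphthalein replicate 3. Slc17a5, the lysosomal sialic acid exporter, differed by -0.36 (SE 0.14, limma adjusted p = 0.555) on its first probe, or -0.23 without phenolphthalein replicate 3, and by 0.03 on its other. Ankh, which governs extracellular pyrophosphate, differed by -0.19 (SE 0.08, limma adjusted p = 0.561) on its first probe and by 0.21 and 0.01 on the others. Of genes outside the rule, picked after their values were seen, Nherf1 was at -0.02 (SE 0.08) and the parathyroid hormone receptor Pth1r at -0.15 (SE 0.14), or -0.03 without phenolphthalein replicate 1.

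A list of other FGF receptors, their ligands and partners held 7 genes that could be tested, on 17 probes. These genes were Fgfr2, Fgfr3, Fgfr4, Fgfrl1, Fgf1, Frs2 and Frs3. The Klotho family genes of the list, Klb and Lctl, had no matched probe. The median of the 17 probes was 0.10 and 14 were above 0, where 20204 of the 43473 probes tested were above 0. None passed, and a single probe, a higher one, had an unadjusted p under 0.05, which is 5.88% against 8.82% of all tested probes. That probe belonged to Fgfrl1, an FGF receptor-like protein without a kinase domain. It stood at 3.82, 3.64 and 4.05 in vehicle and at 4.29, 4.17 and 4.38 in phenolphthalein. All treated values were above all vehicle values, and the difference was 0.44 (SE 0.11, 95% interval 0.18 to 0.71, limma adjusted p = 0.437). The first probes of the kinase receptor Fgfr3 (0.24, SE 0.14) and of the ligand Fgf1 (0.15, SE 0.12) overlapped between the groups. So did the single probe of the kinase receptor Fgfr4 (0.06, SE 0.09). Phenolphthalein replicate 1 was the highest array for these 3 probes. Without it the differences were 0.09 for Fgfr3, 0.00268 for Fgfr4 and 0.05 for Fgf1. The other Fgfr3 probes gave 0.18 (SE 0.13) and 0.10 (SE 0.17), or 0.04 and -0.04 without that array. The second Fgf1 probe gave 0.29 (SE 0.15), or 0.19 without that array. Fgfr2, another kinase receptor, fell outside the rule and was picked after its values were seen. Its 5 tested probes differed in sign and ran from -0.35 (SE 0.27) to 0.18 (SE 0.27). Fgf23 itself was not well above background on any of the 6 arrays.

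Genes that respond to FGF receptor and ERK signalling gave a median of -0.03 over 17 probes of 11 genes, with 7 above 0 and 10 below, and 0 passed. The transcription factor Etv5 stood at 3.54, 3.56 and 3.72 in vehicle and at 3.49, 3.04 and 3.27 in phenolphthalein on its first probe. These groups did not overlap, the difference was -0.34 (SE 0.12, limma adjusted p = 0.518) and -0.22 without phenolphthalein replicate 2, and its second probe gave -0.03. The feedback inhibitor Spry2 differed by -0.18 (SE 0.09, limma adjusted p = 0.621), also without overlap. The phosphatase Dusp5 was at 0.27 (SE 0.21) and the immediate early gene Egr1 at -0.26 (SE 0.29), both with overlapping groups. With 1 array left out, Dusp5 lay between 0.10 (without vehicle replicate 3) and 0.46 (without phenolphthalein replicate 2), and Egr1 between -0.55 (without vehicle replicate 2) and -0.05 (without vehicle replicate 1).

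**Figure D4:**
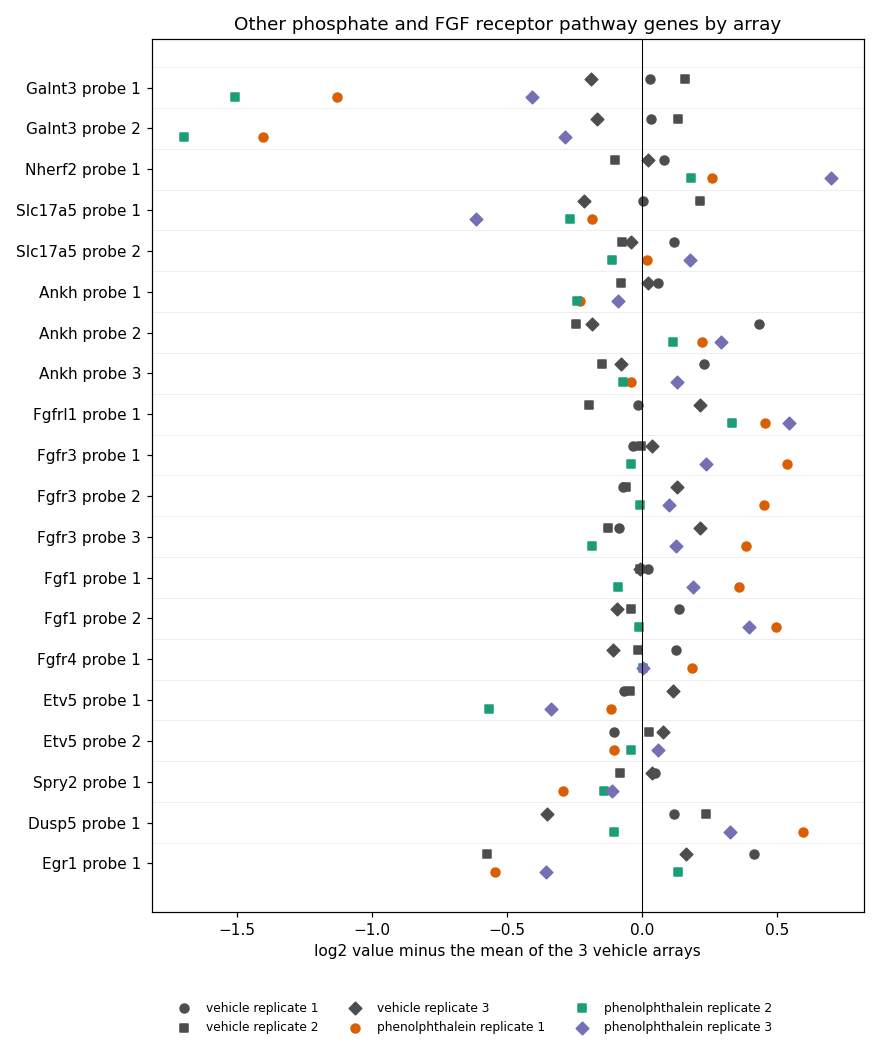
Points are arrays, plotted as log2 level minus the mean of the 3 vehicle arrays (grey), for all tested probes of the 12 other pathway genes named in the text. On both Galnt3 probes the treated arrays lie to the left of every vehicle array, and on the Fgfrl1 probe they lie to the right.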

How the data were processed

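Each deposited scanner file gives 1 processed intensity per spot. Per the file headers, Agilent Feature Extraction 10.7.1.1 had subtracted the background and removed spatial trends, with no scaling between arrays; log2 and the 75th percentile scaling were applied here. The submitters' processing notes name version 10.7. The deposited value table holds a linear ratio of unstated origin. Its columns equal the intensity over each array's 75th percentile (SD of the log2 difference 0.00426 to 0.0072, column medians 0.102 to 0.106), and each matches another replicate of the same group, so replicate numbers here follow the scanner files. It served as an alternative, with 0 columns left out.

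Outlier spots (2 to 14 per array) were set to missing. Probes were named by unversioned RefSeq accession through the GRCr8 gene table: 27460 had 1 symbol and 34197 none. Probes well above background on at least 3 arrays were kept, each separately. limma 3.58.1 in R 4.3.3 (lmFit, eBayes with an intensity trend) compared the groups, with Benjamini-Hochberg adjustment over all 43473 probes and a threshold of 0.05. Precision rests on 3 arrays per group. Coordinates are given for the promoter windows only, because the array was designed on another build.

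All 10 genes and all their probes are given, with the 4 genes of smallest p from each further list, each gene ranked by its probe of highest mean signal. These genes and lists were chosen with earlier results of these data known. The pathway and marker lists named as gene groups are those in the text, where the podocyte, endothelial and thick ascending limb lists had medians of -0.05, 0.01 and 0.05 and the liver list 0.53. Alternatives covered background correction, scaling, the filter, outliers, the variance model, the slide, the replicate block, the summary over probes, the value table and each array left out.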

Additional observations from a re-analysis of the deposited data

How the results depend on the processing

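Under the 12 processing and model alternatives that kept all 6 arrays, 0 probes passed in either direction, and with the replicate block the counts were 0 and 0 as well. Leaving out 1 array gave 0 to 1 probes higher and 0 to 1 lower over the whole array: 1 lower without vehicle replicate 1, 1 each way without phenolphthalein replicate 2 and 1 higher without phenolphthalein replicate 3. None was among the 19, whose smallest adjusted p in any fit was 0.352. The median over the 19 probes lay between -0.07 and 0.01 with 1 array left out. Normexp used the median spot signal, since no mean was listed, and was chosen after seeing the data. For arrays with the same replicate number, deviations correlated at -0.00852, -0.00914 and 0.0431. Replicate numbers differ between the scanner files and the value table, so this cannot show whether animals were paired. The replicate block put 3 of the 19 probes at an unadjusted p under 0.05 in place of 1, with a smallest adjusted p of 0.548.

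Of 324 values of the 19 probes under alternatives, 310 kept their direction, 1 changed sign with a processing choice and 13 when an array was left out. The cause was not tested. With the median over probes, Fgfr1 was at 0.02 and Ankh at 0.21, which are the differences of their second probes. These were compared with their first probes, at -0.04 and -0.19, so the change of sign there is a change of probe. With normexp the second Slc17a5 probe was at -0.03. With 1 array left out, sign changes gave ranges of -0.13 to 0.01 (Slc34a1, second probe), -0.03 to 0.18, -0.13 to 0.16 and -0.19 to 0.04 (Slc20a2, first, second and last), -0.16 to 0.02 (Kl, second) and -0.14 to 0.01, -0.09 to 0.09 and -0.14 to 0.06 (Fgfr1). Outside the 10 genes they were -0.05 to 0.09 (Slc17a5, second), -0.07 to 0.12 (Ankh, the third), -0.08 to 0.01 (Etv5, second) and -0.04 to 0.25 (Fgfr3, the third). With 3 arrays a group, the 95% intervals of the 19 probes reach 0.74 in size, so small shifts of single genes were not detectable at this precision.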
